A study of Homo sapiens with 33 samples.

Results

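Untreated CEM cells were compared with untreated Nalm6 cells, using 6 of the 33 libraries of the series: 3 titled as CEM controls and 3 titled as the Nalm6 controls of the dexamethasone experiment. CEM is a T-cell acute lymphoblastic leukaemia line and Nalm6 is a B-cell precursor acute lymphoblastic leukaemia line. Both were the parental lines, with no knockout and no drug, and RNA was extracted with a column kit. The growth protocol attached to the samples, written for Nalm6 and its knockout, is RPMI-1640 with charcoal-stripped serum, a serum depleted of steroids; nothing separate is given for CEM. Each lineage is represented by 1 line, so lineage and line cannot be told apart. The labels number the libraries of each group 1 to 3 without saying that they came from separate cultures, so p-values measure the spread between these libraries, which may be technical.

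A T-cell precursor becomes committed under Notch signalling and the factors TCF7, GATA3 and BCL11B, rearranges its receptor loci with the RAG recombinase, and signals through CD3 chains, LCK and ZAP70. A B-cell precursor is committed by E2A (TCF3), EBF1 and PAX5, pairs an immunoglobulin heavy chain with the surrogate light chain made by VPREB1 and IGLL1, and signals through CD79A, CD79B, SYK and BTK. Leukaemic lines often keep much of the programme of the stage at which they arose. Beside these lineage programmes the libraries give the baseline levels of the glucocorticoid and Wnt pathway genes that the wider study perturbs with drugs.

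Levels are in CPM, the usual unit of counts scaled to a common library total, here of all counts assigned to genes, and are given in the order replicate 1, 2, 3. Gene totals were 46149818, 45587302 and 33838213 counts in CEM and 45427396, 32501109 and 34710855 in Nalm6. Fold changes are CEM over Nalm6 on the log2 scale, each ± an approximate standard error (SE). This SE is the absolute log2 fold change divided by the square root of the test's F value. Where a line held few counts it can be smaller than the counting error. The p-values are from edgeR's quasi-likelihood test, adjusted by the Benjamini-Hochberg method over all 18018 genes tested. Where all 3 libraries of a line held 0 counts, the fold is a lower bound against a floor of 3 counts in each library; it covers counting error only. CPM do not correct for gene length, so levels are compared between lines and not between genes.

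In each line 1 library stood apart. The chi-square per degree of freedom between the counts of library pairs was 9.73 and 16.7 for Nalm6 replicate 1 against replicates 2 and 3, and 2.82 between those. It was 8.24 and 7.57 for CEM replicate 2 against replicates 1 and 3, and 2.00 between those. Nalm6 replicate 1 also held more counts of CEM genes. Over 138 genes that were on in the treated CEM libraries and at or near 0 in the other untreated Nalm6 set, replicate 1 held 475 counts, with a median of 0.0854% of the CEM level, and 116 of the 138 genes had a count. Replicate 2 held 13 counts and replicate 3 held 28, and the median gene was at 0% in both. In the other direction, 32 genes restricted to Nalm6 gave 0, 2 and 4 counts in CEM replicates 1, 2 and 3. The low values of CEM genes in Nalm6 replicate 1 are therefore given library by library, with bounds without that library for the genes described that had counts in it alone. The listed markers of other cells were mostly at or near 0: the summed level of the 9 myeloid markers was 0.0591 to 0.154 CPM in CEM and 14.1 to 15.2 CPM in Nalm6, where CD33, LYZ and MPO were the members present while FCGR3A, S100A8 and S100A9 had 0 counts in all 6 libraries. Erythroid and platelet markers summed to at most 3.77 CPM in any of the 6 libraries, epithelial markers to at most 2.62 CPM, and stromal markers to at most 14.9 CPM, most of it PDGFRB in Nalm6. These sums cover the listed genes only. Outside the lists, the mesenchymal receptor PDGFRA was at 531, 491 and 492 CPM in Nalm6. The keratin gene KRT1 was at 29.3, 32.9 and 31.0 CPM in CEM. Natural killer markers summed to 15.8 to 18.2 CPM in CEM, nearly all of it NKG7. The part of such markers in the results was not tested.

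**Figure D1:**
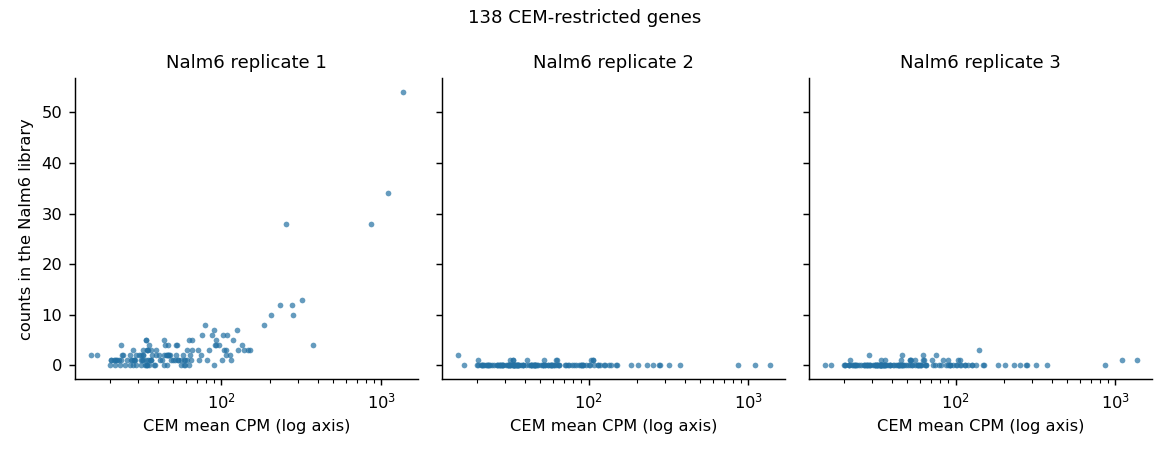
Counts in each Nalm6 library (linear vertical axis) against the CEM mean in CPM (log horizontal axis) for 138 genes restricted to CEM, 1 point a gene. Replicate 1 holds 475 counts in all, most of them in the genes highest in CEM, and replicates 2 and 3 hold 13 and 28.

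The lines differed in most of the transcriptome. Of 18018 genes tested, 7249 were higher in CEM (40.2%) and 6722 were lower (37.3%), together 77.5% of those tested. With a minimum of 2-fold, 3422 were higher (19.0%) and 3043 lower (16.9%), 35.9% in all. Without Nalm6 replicate 1, 14088 genes were called and 6634 at 2-fold or more, and without CEM replicate 2, 13593 and 6605. The median log2 difference over all genes was 0.02. These shares are the background for every list below: a list called in about these shares does what the genes at large do. Genes at 10 CPM or more in every library of 1 line and at no more than 3 counts in each library of the other numbered 282 for CEM and 149 for Nalm6, and they took 0.920% to 0.935% and 1.28% to 1.33% of the counts of their line. With Nalm6 replicate 1 left out, the CEM number was 355 and its share 2.10% to 2.11%.

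The largest fitted differences were in genes that were silent in the other line. PDGFRA, a receptor tyrosine kinase of mesenchymal cells, was at 531, 491 and 492 CPM in Nalm6 and at 0 counts in every CEM library, at least 6903-fold lower in CEM. SYK, the kinase of the B-cell receptor, came next and is described below with its pathway. TCL1A, an AKT co-activator of early B cells, was at 1056, 1064 and 1069 CPM in Nalm6 and gave 1 count in all of CEM, a Nalm6 to CEM ratio of 145377 (95% counting interval 23941 to 5268890.0). The other genes named by size on the Nalm6 side were HLA-DRA, CD74, CD22, C14orf132, RNF130, SNTB1 and TCERG1L, each with no more than 3 counts in any CEM library. On the CEM side, TNFAIP2 was at 93.1, 93.6 and 91.5 CPM, POGLUT3 at 89.7, 89.2 and 91.5 CPM and FOCAD at 60.0, 56.6 and 58.1 CPM, all with 0 counts in Nalm6, which puts them at least 1136-fold, 1105-fold and 713-fold higher. YOD1, RASSF8, NETO1, GDAP1, SUCLG2, GYG2 and BCHE completed the 10 largest rises. This ranking rests on Nalm6 replicate 1: without it the 10 largest rises included CD3D, ANXA1, SMPD3, EPHB6, NKX2-5, CD3G, H3C7, CD3E and RFLNB, none of which is among those ranked with all 6 libraries. CD3D then stood at least 4165-fold above Nalm6.

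**Figure D2:**
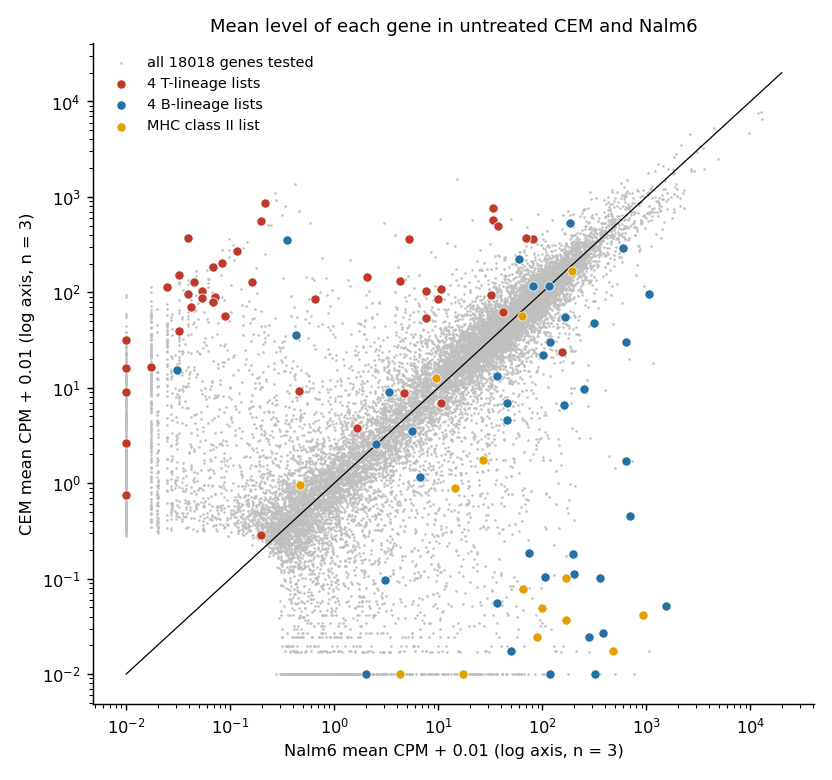
Mean CPM + 0.01 of each of 18018 genes in CEM (vertical) and Nalm6 (horizontal), both axes logarithmic, with members of the T-lineage, B-lineage and MHC class II lists coloured and the line of equal levels drawn. Most T-lineage members lie above the line and most B-lineage and MHC class II members below it, with exceptions of each kind.

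The T-cell receptor complex marked CEM. Of 12 listed genes 11 had a row and 10 passed the filter on low counts; 9 were higher in CEM and 1 lower, against 40.2% and 37.3% of all genes, and the median log2 difference was 11.16 (9.03 with the genes silent in Nalm6 set at their bound) against 0.02 over all genes. CD3D, the delta chain of CD3, was at 384, 362 and 371 CPM in CEM and 0.0881, 0 and 0 CPM in Nalm6. CD3E was at 177, 208 and 166 CPM in CEM and 0.176, 0 and 0 CPM in Nalm6. CD3G was at 203, 213 and 199 CPM in CEM and 0.220, 0 and 0 CPM in Nalm6, so the CEM libraries were high throughout and the counts in Nalm6 lay in replicate 1 alone. Left without that library, CD3E was at least 2058-fold and CD3G at least 2294-fold higher. CD247, the zeta chain that carries the signal, was at 84.4, 83.4 and 86.9 CPM in CEM and 0.792, 0.554 and 0.576 CPM in Nalm6 (log2 fold change 6.97 ± 0.09, adjusted p = 8.34e-16). TRBC2, a constant segment of the receptor beta chain, was at 858, 883 and 845 CPM in CEM and 0.616, 0 and 0 CPM in Nalm6, and without Nalm6 replicate 1 at least 9644-fold higher. TRAC, the alpha-chain constant segment, was low in both lines, at 8.17, 9.87 and 8.33 CPM in CEM and 4.20, 5.11 and 4.64 CPM in Nalm6, and the lines did not overlap (log2 fold change 0.89 ± 0.11, adjusted p = 4.78e-06). TRGC2 and TRGC1, gamma-chain constant segments, were detected in CEM only, at 9.47, 8.29 and 9.19 CPM and 0.693, 0.812 and 0.709 CPM, and TRDC, of the delta chain, had 0 counts in all 6 libraries. The receptor constant segments have near-identical copies, so their levels are uncertain.

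PTCRA, the pre-T alpha chain that pairs with a newly made beta chain, was the exception. It was at 7.22, 6.89 and 6.71 CPM in CEM and 10.7, 8.95 and 12.3 CPM in Nalm6, and every Nalm6 library was above every CEM library (log2 fold change -0.65 ± 0.11, adjusted p = 8.08e-05). That direction belongs to this Nalm6 set: against the other untreated Nalm6 libraries of the series, which lay at 3.10, 3.12 and 4.06 CPM, PTCRA was higher in CEM, at a log2 fold change of 1.08 (adjusted p = 4.54e-08).

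For orientation, the 250 bases before the CD3D start, on the minus strand of GRCh38.p14 at chr11:118342706-118342955 (RefSeq), hold 1 match to the RUNX motif TGTGGT, in capitals. It lies 200 bases before the start. Both strands were searched. The motif occurs in 10.98% of the 35116 RefSeq promoter windows of this length; 2 of the 4 T-cell receptor genes with a window hold it, as do 3 of the 4 B-cell receptor genes.
CD3D: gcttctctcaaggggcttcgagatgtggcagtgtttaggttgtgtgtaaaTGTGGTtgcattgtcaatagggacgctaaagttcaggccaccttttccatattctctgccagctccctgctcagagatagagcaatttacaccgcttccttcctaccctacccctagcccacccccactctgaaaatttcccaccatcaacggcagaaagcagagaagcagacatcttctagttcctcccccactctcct

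Surface proteins of developing T cells followed the receptor. Of 13 listed genes 12 passed the filter and all 12 were higher in CEM, with a median log2 difference of 10.80 (10.26 with bounds). The cortical thymocyte antigens CD1A, CD1B and CD1E, which present lipids, were at 95.3, 85.0 and 89.0 CPM, 32.6, 31.3 and 30.5 CPM and 274, 265 and 269 CPM in CEM. In Nalm6, CD1B had 0 counts and the other CD1 genes stayed at or below 0.286 CPM. Both co-receptors were on in CEM: CD4 was at 55.9, 58.1 and 55.1 CPM in CEM and 0.176, 0.0308 and 0.0288 CPM in Nalm6. CD8A was at 16.6, 16.01 and 15.5 CPM with 0 counts in Nalm6, at least 197-fold higher. CD8B was at 2.51, 2.61 and 2.84 CPM in CEM. CD7, among the earliest T-lineage markers, was at 115, 114 and 112 CPM in CEM and 0.0440, 0 and 0 CPM in Nalm6, at least 1275-fold higher without Nalm6 replicate 1. CD5, a brake on receptor signalling, was at 101, 104 and 102 CPM in CEM and 0.132, 0 and 0 CPM in Nalm6, at least 1146-fold higher without that library. CD28, the costimulatory receptor, was at 132.3, 122 and 131 CPM in CEM and 0.0440, 0.0308 and 0.0288 CPM in Nalm6. THY1 did not pass the filter and stayed at or below 0.219 CPM in every library. CD96, also found on natural killer cells, was on in both lines, at 84.0, 85.6 and 85.0 CPM in CEM and 10.3, 9.23 and 10.0 CPM in Nalm6 (log2 fold change 3.06 ± 0.05, adjusted p = 1.42e-14).

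The signalling chain below the receptor was higher in CEM in all 14 listed genes, but here Nalm6 was seldom silent, and the median log2 difference was 4.20. LCK, the kinase that starts the signal, was at 577, 545 and 576 CPM in CEM and 34.5, 31.4 and 35.1 CPM in Nalm6 (log2 fold change 4.03 ± 0.05, adjusted p = 1.29e-15). ZAP70, which binds the phosphorylated CD3 chains, was at 359.9, 354 and 363 CPM in CEM and 76.5, 82.7 and 86.7 CPM in Nalm6 (log2 fold change 2.09 ± 0.05, adjusted p = 1.49e-13). Both kinases were thus present in the B-cell precursor line at a clear level. LCP2 and SIT1, an adaptor and an inhibitory adaptor, were likewise on in Nalm6, at 10.2, 11.4 and 10.4 CPM and 8.06, 7.26 and 7.43 CPM, against 106, 115 and 104 CPM and 108, 98.9 and 107 CPM in CEM. PRKCQ, the protein kinase C of the T-cell synapse, was at 136, 131 and 131.8 CPM in CEM and 4.25, 4.25 and 4.26 CPM in Nalm6 (log2 fold change 4.92 ± 0.05, adjusted p = 2.79e-16). SH2D1A, GRAP2, UBASH3A and THEMIS had 0 to 2 counts in Nalm6 replicates 2 and 3. Without replicate 1, where GRAP2, UBASH3A and THEMIS had their only Nalm6 counts, these were at least 1681-fold, 978-fold and 884-fold higher in CEM. FYN and TXK, also kinases of T-cell signalling, differed least: FYN was at 94.3, 94.4 and 91.6 CPM in CEM and 32.4, 31.8 and 33.1 CPM in Nalm6. TXK was at 3.53, 3.88 and 3.96 CPM in CEM and 1.89, 1.72 and 1.27 CPM in Nalm6.

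Among 9 T-lineage transcription factors, 7 were higher in CEM, 1 was lower and TOX2, at 0.346 CPM or less throughout, was not called; without Nalm6 replicate 3 it was, at a log2 fold change of 1.39. BCL11B, which closes off other fates, was at 347, 379 and 368 CPM in CEM and 5.04, 5.88 and 4.70 CPM in Nalm6 (log2 fold change 6.10 ± 0.07, adjusted p = 5.98e-16). GATA3 was at 49.9, 63.5 and 48.0 CPM in CEM and 6.32, 7.35 and 8.93 CPM in Nalm6 (log2 fold change 2.81 ± 0.13, adjusted p = 2.09e-10). TOX was at 140.1, 154 and 141 CPM in CEM and 1.92, 2.09 and 2.19 CPM in Nalm6. SATB1, a chromatin organiser, was at 488, 494 and 490.3 CPM in CEM and 38.5, 37.5 and 37.0 CPM in Nalm6. ETS1 was at 739, 799 and 747 CPM in CEM and 33.1, 34.3 and 33.6 CPM in Nalm6. RUNX3, of the CD8 lineage, was at 15.8, 18.8 and 14.8 CPM in CEM and 0.0220, 0 and 0 CPM in Nalm6, at least 184-fold higher without Nalm6 replicate 1. ID3, an inhibitor of E proteins, ran the other way at 23.6, 23.8 and 23.7 CPM in CEM and 146, 158 and 159.6 CPM in Nalm6 (log2 fold change -2.74 ± 0.05, adjusted p = 1.17e-14).

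Of 13 genes that drive T-cell leukaemia when switched on by rearrangement, 6 passed the filter, and 3 were higher and 3 lower in CEM. TAL1, a helix-loop-helix factor normally off in T cells, was at 81.3, 84.0 and 85.4 CPM in CEM and 0.0660, 0 and 0.0288 CPM in Nalm6. NKX2-5, a homeobox factor of the heart, was at 229, 258 and 214 CPM in CEM and 0.264, 0 and 0 CPM in Nalm6, at least 2614-fold higher without Nalm6 replicate 1. LMO1, TLX1, TLX3 and NKX2-1 had 0 counts in all 6 libraries. LYL1 and LMO2, of the same list, were higher in Nalm6: LYL1 was at 30.2, 30.5 and 31.3 CPM in CEM and 50.3, 55.3 and 58.3 CPM in Nalm6. LMO2 was at 12.6, 13.4 and 13.5 CPM in CEM and 20.4, 20.1 and 20.5 CPM in Nalm6. MEF2C, a factor of early lymphoid and myeloid cells, was at 9.95, 9.61 and 10.2 CPM in CEM and 213, 202 and 196 CPM in Nalm6 (log2 fold change -4.40 ± 0.06, adjusted p = 9.26e-16). MYB was high in both, at 981, 981 and 977 CPM in CEM and 500.1, 497 and 499 CPM in Nalm6 (log2 fold change 0.94 ± 0.03, adjusted p = 2.66e-11).

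Notch pathway genes were divided, with 6 of the 10 tested higher in CEM and 4 lower, against 40.2% and 37.3% of all genes. The receptor NOTCH1 was at 576, 615 and 585 CPM in CEM and 44.2, 49.97 and 54.9 CPM in Nalm6 (log2 fold change 3.54 ± 0.07, adjusted p = 3.10e-14). NOTCH3, itself a target of the pathway, was at 40.9, 49.7 and 48.5 CPM in CEM and 0.726, 0.892 and 0.663 CPM in Nalm6 (log2 fold change 5.89 ± 0.12, adjusted p = 8.32e-14). The target HES1, a repressor, was at 65.1, 68.3 and 70.6 CPM in CEM and 0.0660, 0 and 0.0288 CPM in Nalm6. HES4 was at 8.84, 8.91 and 7.51 CPM in CEM with 1 count in all of Nalm6. Other genes usually listed as targets or parts of the pathway were higher in Nalm6. DTX1, a ubiquitin ligase, was at 10.5, 9.89 and 9.19 CPM in CEM and 169.8, 192 and 199 CPM in Nalm6 (log2 fold change -4.27 ± 0.07, adjusted p = 8.13e-15). NRARP, a feedback inhibitor, was at 0.282, 0.307 and 0.384 CPM in CEM and 2.88, 2.65 and 3.11 CPM in Nalm6 (log2 fold change -3.20 ± 0.18, adjusted p = 2.80e-09). MAML2, a co-activator, was at 0.173, 0.110 and 0.266 CPM in CEM and 20.01, 20.9 and 21.2 CPM in Nalm6 (log2 fold change -6.89 ± 0.14, adjusted p = 8.76e-14). No library of 1 line entered the range of the other for the Notch genes given here. HEY1, of the same list, was at 0.152 CPM or less, did not pass the filter and did overlap. The share of all genes without overlap was not counted, so this separation is not a result about Notch genes.

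**Figure D3:**
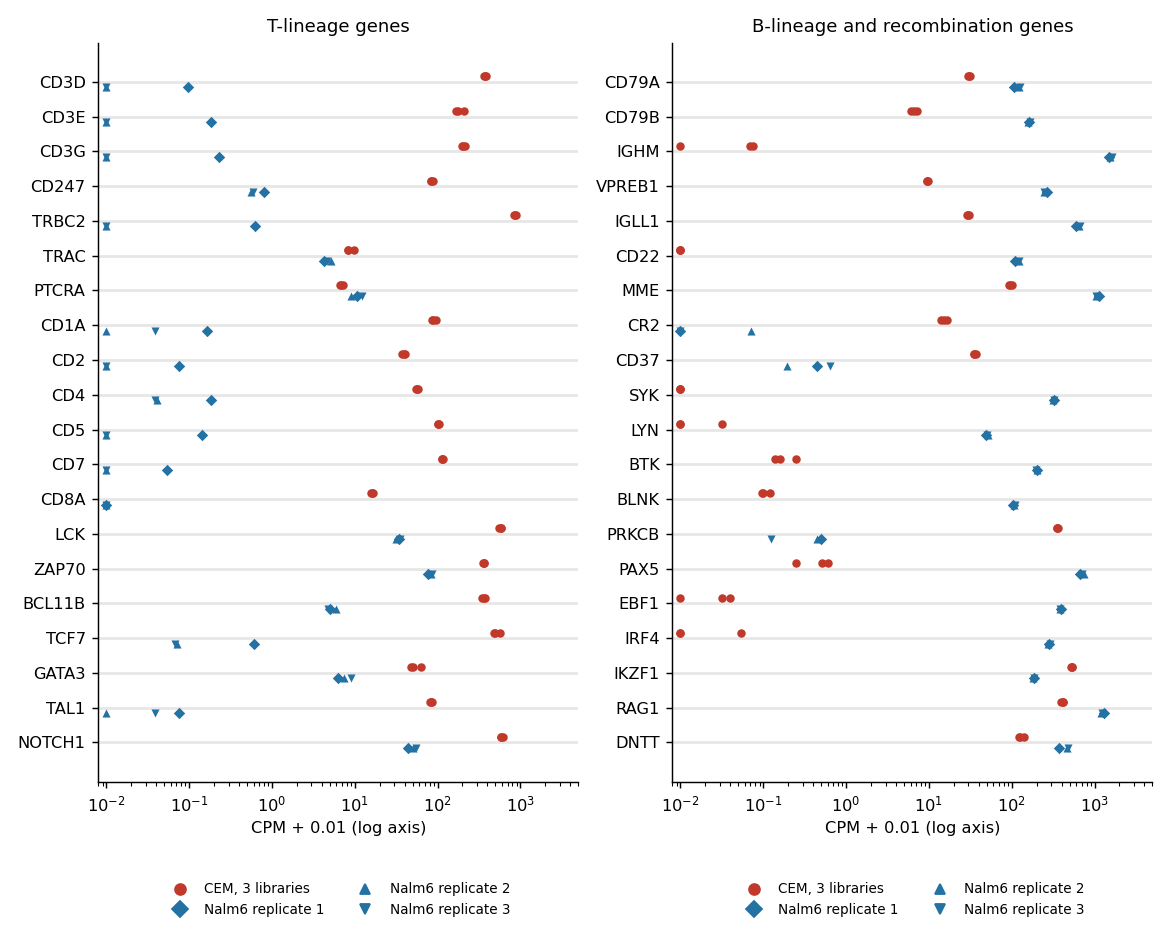
CPM + 0.01 on a log axis for T-lineage genes (left) and B-lineage and recombination genes (right), 1 point a library, with the Nalm6 replicates drawn by shape; points at the left edge are 0 counts. CD3D, CD7 and TRBC2 show counts in Nalm6 replicate 1 alone, and CR2, CD37, PRKCB and IKZF1 lie on the CEM side of the right panel.

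The pre-B receptor marked Nalm6. All 6 of the 7 listed genes that passed the filter were lower in CEM, with a median log2 difference of -4.69; IGKC, a light-chain constant gene, had 0 counts in Nalm6 and at most 0.0887 CPM in CEM. IGHM, the mu heavy chain, was at 0.0650, 0 and 0.0591 CPM in CEM and 1476, 1554 and 1620.3 CPM in Nalm6, with 5 counts in all of CEM. The surrogate light chain was lower in CEM but not absent: VPREB1 was at 9.58, 9.45 and 9.78 CPM in CEM and 263, 247 and 246 CPM in Nalm6 (log2 fold change -4.75 ± 0.05, adjusted p = 3.89e-16). IGLL1 was at 30.0, 30.9 and 28.8 CPM in CEM and 589.6, 650.0 and 676 CPM in Nalm6 (log2 fold change -4.45 ± 0.06, adjusted p = 1.17e-15). IGLL1 has near-identical copies and its level is uncertain. CD79A, the signalling chain, was at 30.2, 29.6 and 31.0 CPM in CEM and 105, 122 and 126 CPM in Nalm6 (log2 fold change -1.99 ± 0.06, adjusted p = 3.82e-12), and its partner CD79B at 7.19, 6.62 and 5.999 CPM in CEM and 163, 156 and 164 CPM in Nalm6 (log2 fold change -4.64 ± 0.06, adjusted p = 1.68e-15). VPREB3, an endoplasmic reticulum partner of the mu chain, was at 0.0650, 0.0439 and 0.0296 CPM in CEM and 33.3, 38.7 and 37.9 CPM in Nalm6. In the other untreated Nalm6 set VPREB3 was lower, at 11.8 to 12.8 CPM, and so was CD79A, at 57.4 to 61.6 CPM. IGHM was at a like level there, 1513 to 1584 CPM. CD79A, CD79B, IGLL1 and VPREB1 were thus detected in every CEM library.

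The windows before the surrogate light chain genes, both lower in CEM, carry the palindrome CCCNNGGG, the core letters bound by EBF1, in capitals below. VPREB1 lies on the plus strand of GRCh38.p14 with its window at chr22:22244536-22244785, and holds 1 match starting 29 bases before the start. IGLL1 lies on the minus strand with its window at chr22:23580291-23580540, and holds 4 overlapping matches in 2 places, starting 184 and 87 bases before the start. The palindrome reads the same on both strands. It occurs in 17.1% of the 35116 windows, and in 2 of the 4 B-cell receptor genes that have one, these being the pair shown. The palindrome is also in 2 of 6 T-cell surface genes, CD1E and CD8A, both higher in CEM, and in 2 of 7 B-cell surface genes. It is in 2 of 13 class II, 1 of 9 class I and 0 of 4 T-cell receptor genes.
VPREB1: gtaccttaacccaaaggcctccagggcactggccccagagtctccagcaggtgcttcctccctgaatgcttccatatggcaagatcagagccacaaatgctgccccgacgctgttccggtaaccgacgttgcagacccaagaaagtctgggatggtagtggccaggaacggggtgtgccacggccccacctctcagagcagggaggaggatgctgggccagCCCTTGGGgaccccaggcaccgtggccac
IGLL1: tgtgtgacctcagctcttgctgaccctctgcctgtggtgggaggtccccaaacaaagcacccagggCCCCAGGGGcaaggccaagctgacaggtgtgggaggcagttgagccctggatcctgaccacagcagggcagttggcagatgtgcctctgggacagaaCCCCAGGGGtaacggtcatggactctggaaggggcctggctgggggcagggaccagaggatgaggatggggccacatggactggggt

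Surface proteins of B-cell precursors gave 6 lower and 3 higher in CEM of 9 tested, with a median log2 difference of -3.50. CD22, an inhibitory lectin, was at 111, 122 and 123 CPM in Nalm6 with 0 counts in CEM, at least 1624-fold lower. MME, the CD10 antigen of common acute lymphoblastic leukaemia, was at 96.0, 93.9 and 101 CPM in CEM and 1135, 1035 and 1027 CPM in Nalm6 (log2 fold change -3.50 ± 0.05, adjusted p = 4.20e-15), so CEM also held it at a substantial level. CD9, a tetraspanin, was at 0.0650, 0 and 0.207 CPM in CEM and 379, 335 and 359 CPM in Nalm6. MS4A1, the CD20 antigen of more mature B cells, was low in Nalm6 at 1.94, 2.43 and 1.61 CPM and had 0 counts in CEM. These Nalm6 levels depended on the set. In the other untreated Nalm6 set MS4A1 was at 0.0612 to 0.371 CPM and CD22 at 57.15 to 63.7 CPM. MME and CD9 were higher there, at 1222 to 1252 CPM and 444 to 455 CPM. The genes higher in CEM included CR2, the complement receptor and Epstein-Barr virus receptor of B cells, at 16.5, 14.2 and 15.3 CPM in CEM and 0, 0.0615 and 0 CPM in Nalm6. CD37, a tetraspanin of mature B cells, was at 35.1, 36.8 and 35.2 CPM in CEM and 0.440, 0.185 and 0.634 CPM in Nalm6 (log2 fold change 6.34 ± 0.15, adjusted p = 2.30e-13). CD38, an ectoenzyme of many lymphoid stages, was at 113, 116 and 117 CPM in CEM and 80.8, 80.7 and 83.7 CPM in Nalm6 (log2 fold change 0.46 ± 0.04, adjusted p = 1.89e-07).

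Signalling below the B-cell receptor differed in both directions. Of 10 genes tested, 7 were lower in CEM and 2 higher, with a median log2 difference of -5.68. SYK was at 320.3, 312 and 328 CPM in Nalm6 and had 0 counts in every CEM library, at least 4376-fold lower, whereas its T-cell relative ZAP70 was on in both lines. LYN, the Src-family kinase of B cells, was at 0, 0.0219 and 0 CPM in CEM and 48.8, 51.9 and 49.96 CPM in Nalm6, 1 count in all of CEM. BTK was at 0.130, 0.241 and 0.148 CPM in CEM and 201, 199 and 197 CPM in Nalm6 (log2 fold change -10.16 ± 0.09, adjusted p = 1.56e-16). BLNK, the adaptor that links SYK to BTK, was at 0.0867, 0.110 and 0.0887 CPM in CEM and 102, 106 and 111 CPM in Nalm6 (log2 fold change -10.11 ± 0.10, adjusted p = 1.81e-16). PIK3AP1, an adaptor for phosphoinositide 3-kinase, was at 1.54, 1.71 and 1.83 CPM in CEM and 641, 636 and 640.5 CPM in Nalm6 (log2 fold change -8.60 ± 0.06, adjusted p = 4.64e-17). BLK and PLCG2, a kinase and a phospholipase, remained on in CEM, at 7.24, 6.43 and 7.12 CPM and 22.1, 21.6 and 22.6 CPM, against 44.0, 45.2 and 47.9 CPM and 93.5, 105 and 109 CPM in Nalm6. PRKCB, the protein kinase C of the B-cell receptor, ran the other way, at 359, 355 and 352 CPM in CEM and 0.484, 0.431 and 0.115 CPM in Nalm6 (log2 fold change 9.92 ± 0.13, adjusted p = 1.17e-15). VAV3, an exchange factor, was also higher in CEM, at 229, 216 and 225 CPM in CEM and 63.7, 58.2 and 55.9 CPM in Nalm6 (log2 fold change 1.87 ± 0.05, adjusted p = 2.03e-12).

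Of 15 B-lineage transcription factors tested, 12 were lower in CEM, 2 higher and 1 not called, with a median log2 difference of -2.75. EBF1 was at 0, 0.0219 and 0.0296 CPM in CEM and 389.9, 388 and 377 CPM in Nalm6, 2 counts in all of CEM. PAX5 was at 0.238, 0.505 and 0.591 CPM in CEM and 662, 741 and 707 CPM in Nalm6 (log2 fold change -10.70 ± 0.12, adjusted p = 3.28e-16). FOXO1, which drives RAG expression, was at 0.108, 0.241 and 0.177 CPM in CEM and 72.3, 79.0 and 71.4 CPM in Nalm6 (log2 fold change -8.74 ± 0.12, adjusted p = 1.68e-15). IRF4, a factor of the pre-B transition, was at 0, 0.0439 and 0 CPM in CEM and 285, 274 and 290.2 CPM in Nalm6, and SPI1, the PU.1 factor of myeloid and B cells, was at 15.2, 17.5 and 19.1 CPM in Nalm6 with 0 counts in CEM, at least 236-fold lower. TCF3 differed far less, at 279.5, 307 and 285 CPM in CEM and 539.7, 593 and 645 CPM in Nalm6 (log2 fold change -1.07 ± 0.06, adjusted p = 2.01e-09). BACH2 and ERG stayed on in CEM, at 46.6, 49.9 and 46.6 CPM and 57.5, 51.9 and 55.2 CPM, against 311, 315 and 310.0 CPM and 161, 165 and 168 CPM. IKZF1, the Ikaros factor of all lymphoid cells, was higher in CEM at 520.0, 541 and 535 CPM in CEM and 183, 182 and 187 CPM in Nalm6 (log2 fold change 1.49 ± 0.04, adjusted p = 5.88e-13), as was IKZF3, or Aiolos, at 8.52, 9.74 and 8.98 CPM in CEM and 3.28, 3.08 and 3.72 CPM in Nalm6 (log2 fold change 1.40 ± 0.10, adjusted p = 2.97e-08). The member not called was BCL11A, at 112, 119 and 117 CPM in CEM and 120.2, 115 and 115 CPM in Nalm6 (log2 fold change -0.05 ± 0.04, adjusted p = 0.31); against the other untreated Nalm6 set it was lower in CEM, at -0.70 (adjusted p = 2.33e-12).

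The recombination genes were on in both lines and lower in CEM, by 3.05-fold for RAG1, 3.10-fold for RAG2 and 3.40-fold for DNTT as ratios of mean CPM, before TMM scaling. RAG1 was at 418, 393 and 415 CPM in CEM and 1307, 1205 and 1224 CPM in Nalm6 (log2 fold change -1.65 ± 0.04, adjusted p = 1.15e-12). RAG2, its partner in the recombinase, was at 54.2, 53.0 and 56.7 CPM in CEM and 177, 167 and 165 CPM in Nalm6 (log2 fold change -1.67 ± 0.05, adjusted p = 1.50e-12). DNTT, the terminal transferase that adds bases at the joins, was at 124, 141 and 121 CPM in CEM and 373, 465 and 477 CPM in Nalm6 (log2 fold change -1.80 ± 0.08, adjusted p = 3.21e-10). In each of the 3 genes every CEM library lay below every Nalm6 library, but the share of all genes so separated was not counted.

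Most genes of antigen presentation through MHC class II were at or near 0 in CEM, apart from HLA-DMA, HLA-DMB, HLA-DOB and the RFX subunits. Of 15 listed genes, all tested, 13 were lower in CEM and 2 higher, with a median log2 difference of -10.43 (-7.88 with bounds). CIITA, the co-activator that switches the class II genes on, was at 0.0217, 0 and 0.0591 CPM in CEM and 145, 176 and 182 CPM in Nalm6. The chains of HLA-DR followed: HLA-DRA was at 0, 0.0219 and 0 CPM in CEM and 494, 471 and 458 CPM in Nalm6. HLA-DRB1 was at 0, 0.0439 and 0 CPM in CEM and 89.5, 88.9 and 90.5 CPM in Nalm6; over the 3 CEM libraries HLA-DRA had 1 count and HLA-DRB1 had 2. HLA-DPA1 was at 0.0650, 0.0877 and 0.118 CPM in CEM and 174, 170.2 and 163 CPM in Nalm6. HLA-DPB1 was at 0.0867, 0 and 0.0296 CPM in CEM and 97.4, 99.1 and 101 CPM in Nalm6. HLA-DQA1 and HLA-DQB1 were low in Nalm6, at 4.38, 4.74 and 3.75 CPM and 15.9, 18.4 and 17.4 CPM, and had 0 counts in CEM. CD74, the invariant chain that guards the class II groove, was at 0.0217, 0.0439 and 0.0296 CPM in CEM and 839.7, 950.4 and 977 CPM in Nalm6. HLA-DMA and HLA-DMB, which load peptides, kept a low level in CEM: HLA-DMA was at 1.82, 1.73 and 1.68 CPM in CEM and 26.6, 26.5 and 27.4 CPM in Nalm6 (log2 fold change -3.97 ± 0.08, adjusted p = 4.27e-14). HLA-DMB was at 1.02, 0.790 and 0.827 CPM in CEM and 14.5, 14.03 and 14.6 CPM in Nalm6 (log2 fold change -4.06 ± 0.11, adjusted p = 9.47e-13). HLA-DOB, a chain of the HLA-DO modulator of peptide loading, ran the other way, low in both lines at 0.780, 1.03 and 1.00 CPM in CEM and 0.638, 0.492 and 0.230 CPM in Nalm6 (log2 fold change 0.95 ± 0.29, adjusted p = 0.0098). Against the other untreated Nalm6 set its log2 fold change was 0.31 (adjusted p = 0.14). The subunits of RFX, a DNA-binding complex that recruits CIITA, were on in both lines and nearly level. RFX5 was at 172, 162 and 166 CPM in CEM and 199, 191 and 193 CPM in Nalm6 (log2 fold change -0.26 ± 0.04, adjusted p = 6.06e-05). RFXANK was at 56.2, 57.6 and 56.9 CPM in CEM and 65.0, 62.3 and 64.6 CPM in Nalm6 (log2 fold change -0.21 ± 0.04, adjusted p = 4.72e-04). RFXAP was at 10.6, 14.9 and 12.4 CPM in CEM and 9.18, 10.1 and 9.33 CPM in Nalm6 (log2 fold change 0.37 ± 0.11, adjusted p = 0.0081). These small differences depended on the Nalm6 set, since against the other untreated one RFX5 was at 0.03 (adjusted p = 0.45), RFXANK at 0.12 (adjusted p = 0.003) and RFXAP at -0.44 (adjusted p = 2.48e-04). HLA genes are alike and polymorphic, and their counts against a reference are uncertain.

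Class II promoters share a Y box, which the factor NF-Y binds, with the core ATTGG. The windows of 3 genes that were lower in CEM are shown with each ATTGG, on either strand, in capitals (CCAAT where it lies on the other strand). All are on minus strands of GRCh38.p14 (RefSeq): HLA-DRB1 at chr6:32589849-32590098, HLA-DMA at chr6:32953098-32953347 and CD74 at chr5:150412911-150413160. The matches start 195 and 46 bases before the start in HLA-DRB1, 79 and 49 bases in HLA-DMA, and 53 bases in CD74. Of the 13 class II list genes with a window 10 hold the core, as do 6 of 9 class I list genes, against 32.0% of the 35116 windows. The core is also in 6 of 7 B-cell surface genes, 2 of 6 T-cell surface genes and 1 of 4 genes of each receptor list. The longer form CTGATTGG, which contains the core, is in 4 of the 13 class II and 4 of the 9 class I genes, against 3.81%. It is in 0 of the 7 B-cell surface genes.
HLA-DRB1: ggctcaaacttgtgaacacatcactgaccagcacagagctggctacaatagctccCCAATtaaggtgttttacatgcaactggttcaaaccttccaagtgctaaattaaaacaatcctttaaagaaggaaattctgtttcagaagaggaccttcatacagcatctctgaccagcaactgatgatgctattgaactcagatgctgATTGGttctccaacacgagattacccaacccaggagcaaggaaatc
HLA-DMA: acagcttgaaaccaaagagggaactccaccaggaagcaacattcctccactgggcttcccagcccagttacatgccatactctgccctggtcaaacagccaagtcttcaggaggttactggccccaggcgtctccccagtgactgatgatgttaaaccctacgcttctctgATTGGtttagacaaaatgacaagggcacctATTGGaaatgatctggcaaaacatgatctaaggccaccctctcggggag
CD74: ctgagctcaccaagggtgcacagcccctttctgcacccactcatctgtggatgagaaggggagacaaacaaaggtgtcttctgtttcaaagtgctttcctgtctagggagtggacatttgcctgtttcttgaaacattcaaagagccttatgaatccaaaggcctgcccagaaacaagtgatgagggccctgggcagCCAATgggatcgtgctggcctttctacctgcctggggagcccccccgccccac

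MHC class I was on in both lines. Of 12 genes tested, 4 were higher in CEM, 7 lower and 1 not called, with a median log2 difference of -0.25. NLRC5, the class I counterpart of CIITA, was at 75.8, 75.5 and 75.4 CPM in CEM and 95.8, 98.8 and 104 CPM in Nalm6 (log2 fold change -0.43 ± 0.04, adjusted p = 5.64e-07). HLA-B, a classical class I heavy chain, was lower in CEM, at 195, 193 and 185 CPM in CEM and 479, 490.1 and 505 CPM in Nalm6 (log2 fold change -1.40 ± 0.04, adjusted p = 1.91e-12). HLA-F, a non-classical class I gene, was nearly off in CEM, at 0.260, 0.197 and 0.502 CPM in CEM and 29.2, 27.7 and 29.9 CPM in Nalm6 (log2 fold change -6.60 ± 0.14, adjusted p = 1.29e-13). B2M, the shared light chain, was at 812, 763 and 821 CPM in CEM and 746, 671 and 639 CPM in Nalm6 (log2 fold change 0.18 ± 0.06, adjusted p = 0.0098); its call was lost, at adjusted p of 0.077 and 0.078, when Nalm6 replicate 2 or 3 was left out.

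**Figure D4:**
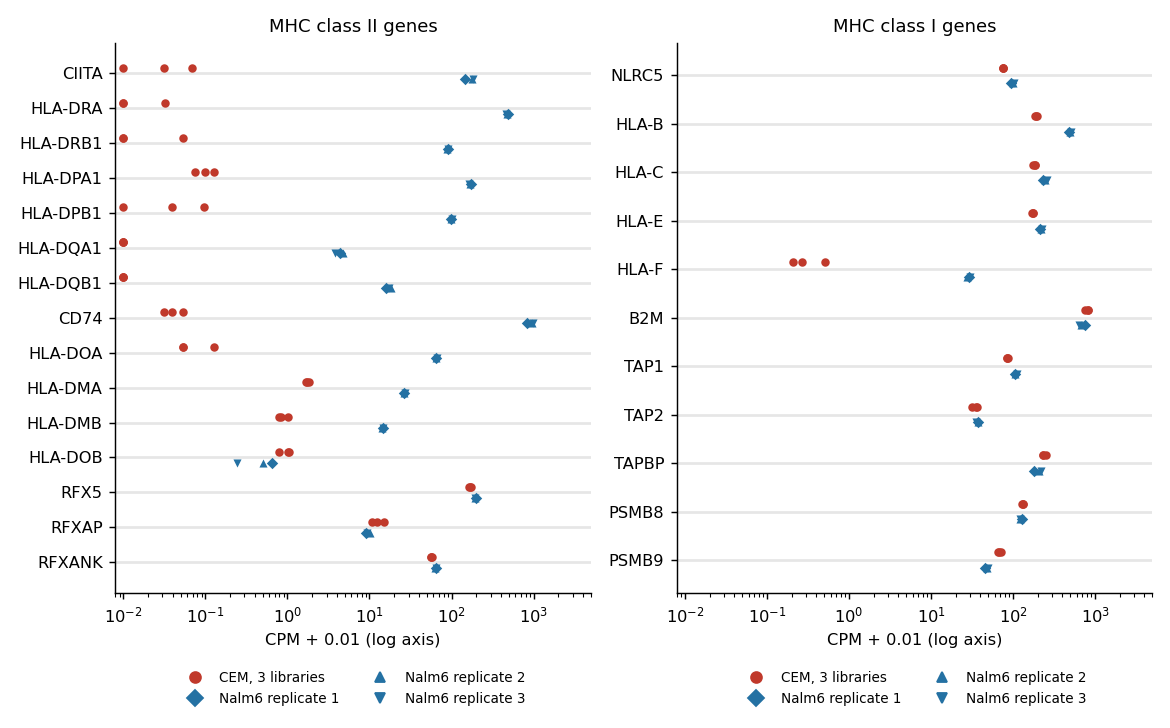
CPM + 0.01 on a log axis for MHC class II genes (left) and class I genes (right), 1 point a library; points at the left edge are 0 counts. CIITA, HLA-DR, HLA-DP, HLA-DQ and CD74 are at or near 0 in CEM, while the RFX subunits lie close together, and so do the class I genes other than HLA-F and HLA-B.

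The glucocorticoid receptor gene NR3C1 was nearly level, at 202, 201 and 207 CPM in CEM and 232, 216 and 207 CPM in Nalm6, with the CEM libraries just below the Nalm6 ones (log2 fold change -0.14 ± 0.05, adjusted p = 0.015). Its call was lost when the libraries were scaled by totals alone, at adjusted p = 0.054, and without CEM replicate 1, at 0.061. Of 14 receptor and chaperone genes, 9 were higher in CEM, 4 lower and 1 not called, with a median log2 difference of 0.26. FKBP4, a chaperone of the receptor, was at 176, 170.4 and 171 CPM in CEM and 25.3, 26.5 and 26.1 CPM in Nalm6 (log2 fold change 2.70 ± 0.04, adjusted p = 6.74e-15). HSP90AA1 was at 1171, 1525 and 1115 CPM in CEM and 506, 643 and 671 CPM in Nalm6 (log2 fold change 1.03 ± 0.11, adjusted p = 2.37e-06), and CEM replicate 2 was the highest library; without it the log2 fold change was 0.88 (adjusted p = 6.01e-07). HSP90AB1, the constitutive form, was at 1369, 1400.1 and 1309 CPM in CEM and 1852, 1969 and 1935 CPM in Nalm6 (log2 fold change -0.54 ± 0.04, adjusted p = 3.80e-08). NR3C2, the mineralocorticoid receptor, was low, at 0.390, 0.285 and 0.236 CPM in CEM and 4.78, 4.55 and 4.61 CPM in Nalm6 (log2 fold change -3.93 ± 0.17, adjusted p = 1.30e-10). The co-repressor NCOR1 was at 241, 252 and 241 CPM in CEM and 128, 139 and 142 CPM in Nalm6 (log2 fold change 0.81 ± 0.04, adjusted p = 2.05e-09).

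Of 15 tested genes known to respond to glucocorticoids, 5 were higher in CEM, 7 lower and 3 not called. Among all genes tested 40.2% were higher and 37.3% lower, and the list was not tested against these shares. DUSP1, a phosphatase of stress kinases, was at 6.61, 7.39 and 6.94 CPM in CEM and 185, 189.5 and 193 CPM in Nalm6 (log2 fold change -4.80 ± 0.05, adjusted p = 4.10e-16). TSC22D3, known as GILZ, was at 1.97, 2.33 and 2.13 CPM in CEM and 12.2, 12.2 and 12.5 CPM in Nalm6 (log2 fold change -2.56 ± 0.09, adjusted p = 2.01e-11). KLF9, a repressor, was at 0, 0.0439 and 0 CPM in CEM and 3.35, 3.29 and 3.60 CPM in Nalm6. BCL2L11, the death gene BIM, was at 10.3, 11.3 and 9.31 CPM in CEM and 16.8, 17.5 and 18.9 CPM in Nalm6 (log2 fold change -0.81 ± 0.08, adjusted p = 7.21e-07). On the other side SLA, an adaptor that lowers receptor signalling, was at 176, 167 and 172 CPM in CEM and 0.0881, 0.0615 and 0 CPM in Nalm6. PFKFB2, of glycolysis, was at 8.49, 7.94 and 8.36 CPM with 0 counts in Nalm6, at least 101-fold higher. FKBP5, the receptor's feedback inhibitor, was at 111, 127 and 108 CPM in CEM and 68.3, 90.2 and 91.8 CPM in Nalm6 (log2 fold change 0.44 ± 0.09, adjusted p = 9.35e-04); against the other untreated Nalm6 set its adjusted p was 0.12.

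In the BCL2 family, which sets the threshold for cell death, 5 of 14 genes were higher in CEM, 7 lower and 2 not called. The background was 40.2% higher and 37.3% lower over all genes tested. BCL2 was at 44.1, 41.4 and 48.0 CPM in CEM and 183, 187 and 175 CPM in Nalm6 (log2 fold change -2.07 ± 0.05, adjusted p = 7.95e-13), and its relative BCL2L1, or BCL-X, was opposite, at 144, 144 and 143 CPM in CEM and 52.3, 58.5 and 56.3 CPM in Nalm6 (log2 fold change 1.33 ± 0.05, adjusted p = 1.19e-11). The BH3-only genes BMF and HRK were lower in CEM: BMF was at 0.455, 0.373 and 0.384 CPM in CEM and 4.27, 4.37 and 4.96 CPM in Nalm6 (log2 fold change -3.51 ± 0.16, adjusted p = 2.25e-10). HRK was at 0.368, 0.263 and 0.296 CPM in CEM and 12.1, 13.6 and 14.3 CPM in Nalm6 (log2 fold change -5.44 ± 0.14, adjusted p = 9.19e-13). BBC3, the death gene PUMA, was at 1.13, 1.23 and 1.24 CPM in CEM and 4.07, 4.37 and 4.29 CPM in Nalm6 (log2 fold change -1.86 ± 0.12, adjusted p = 9.85e-09).

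Of 12 cell-cycle brakes and cyclins tested, 8 were higher in CEM and 4 lower, against 40.2% and 37.3% of all genes. CDKN1A, the cyclin-dependent kinase inhibitor p21, was at 2.06, 2.94 and 2.51 CPM in CEM and 139, 149.5 and 149 CPM in Nalm6 (log2 fold change -5.90 ± 0.08, adjusted p = 2.34e-15). CDKN2D and CDKN2C, inhibitors of CDK4 and CDK6, were at 56.4, 57.1 and 59.0 CPM and 123, 126 and 123 CPM in CEM against 10.2, 9.32 and 9.10 CPM and 32.0, 34.0 and 36.1 CPM in Nalm6. CDKN2A and its neighbour MTAP had 0 counts in Nalm6 and were low in CEM, at 0.845, 0.592 and 0.414 CPM and 1.19, 0.834 and 1.51 CPM. MKI67, a proliferation marker, was at 544, 642 and 549 CPM in CEM and 171, 195 and 196 CPM in Nalm6 (log2 fold change 1.59 ± 0.07, adjusted p = 1.59e-10). Of the 8 proliferation genes 6 were higher in CEM, 1 of them at 2-fold or more, and 2 were lower. The number of these genes lower was 1 under several alternatives, among them leaving out any 1 CEM library. Of 7 mismatch repair genes, 4 were higher, 2 lower and 1 not called; the number lower was 1 without CEM replicate 2 and 1 without Nalm6 replicate 3.

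Many Wnt pathway genes were detected in both lines, with levels that differed in both directions. Pathway activity was not measured. Of 22 receptors and transducers tested, 8 were higher in CEM, 12 lower and 2 not called, and the median log2 difference was -0.24. Over all genes tested 40.2% were higher and 37.3% lower. The co-receptors differed in opposite directions: LRP5 was at 16.4, 17.4 and 16.5 CPM in CEM and 0.308, 0.185 and 0.173 CPM in Nalm6 (log2 fold change 6.13 ± 0.15, adjusted p = 2.89e-13). LRP6 was at 17.2, 17.3 and 16.9 CPM in CEM and 61.5, 60.0 and 59.3 CPM in Nalm6 (log2 fold change -1.85 ± 0.05, adjusted p = 6.19e-13). Among Frizzled receptors FZD6 was at 58.7, 54.1 and 59.3 CPM in CEM and 5.57, 5.32 and 5.13 CPM in Nalm6 (log2 fold change 3.38 ± 0.06, adjusted p = 3.17e-14). FZD3 was at 0.0433, 0.0877 and 0.0887 CPM in CEM and 52.9, 49.0 and 45.2 CPM in Nalm6 (log2 fold change -9.40 ± 0.15, adjusted p = 7.89e-15). CTNNB1, or beta-catenin, was at 215, 202 and 211 CPM in CEM and 249, 236 and 232 CPM in Nalm6 (log2 fold change -0.23 ± 0.04, adjusted p = 3.25e-04), and against the other untreated Nalm6 set its log2 fold change was -0.01 (adjusted p = 0.77). GSK3B, a kinase that CHIR-99021 inhibits, was at 86.1, 99.7 and 90.9 CPM in CEM and 38.3, 40.0 and 39.5 CPM in Nalm6 (log2 fold change 1.19 ± 0.06, adjusted p = 3.21e-10).

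The nuclear partners of beta-catenin also differed. TCF7, the T-cell factor, was at 477, 564 and 498 CPM in CEM and 0.594, 0.0615 and 0.0576 CPM in Nalm6, and LEF1 was high in both, at 584, 612 and 582 CPM in CEM and 473, 515 and 525 CPM in Nalm6 (log2 fold change 0.19 ± 0.04, adjusted p = 0.0012). The TLE co-repressors, which bind TCF factors in the absence of beta-catenin, also differed in both directions: TLE1 was at 85.2, 88.5 and 82.1 CPM in CEM and 25.98, 27.2 and 27.9 CPM in Nalm6 (log2 fold change 1.62 ± 0.05, adjusted p = 2.76e-12). TLE3 was at 143, 155 and 145 CPM in CEM and 0.0660, 0 and 0 CPM in Nalm6. TLE4 was at 81.7, 81.6 and 82.6 CPM in CEM and 297, 320.3 and 314 CPM in Nalm6 (log2 fold change -1.96 ± 0.04, adjusted p = 7.75e-14). TLE3 in Nalm6 gave 3 counts, all in replicate 1, and without that library it was at least 1651-fold higher in CEM. Of 10 Wnt target genes tested 5 were higher in CEM and 5 lower, against 40.2% and 37.3% of all genes. LGR5, a receptor for R-spondins, was at 0.0217, 0 and 0 CPM in CEM and 285, 282 and 274 CPM in Nalm6, 1 count in all of CEM, and APCDD1, an inhibitor, was at 18.1, 17.6 and 19.3 CPM in Nalm6 with 0 counts in CEM. AXIN2, the usual readout of the pathway, was low in both, at 1.08, 0.834 and 1.06 CPM in CEM and 2.55, 3.11 and 3.40 CPM in Nalm6 (log2 fold change -1.63 ± 0.16, adjusted p = 9.06e-07). MYC was at 270.2, 278 and 265 CPM in CEM and 784, 879.8 and 909 CPM in Nalm6 (log2 fold change -1.70 ± 0.05, adjusted p = 3.25e-12). CD44, an adhesion receptor, was at 86.8, 108 and 84.0 CPM in CEM and 0.837, 0.954 and 0.720 CPM in Nalm6 (log2 fold change 6.76 ± 0.14, adjusted p = 8.61e-14).

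**Figure D5:**
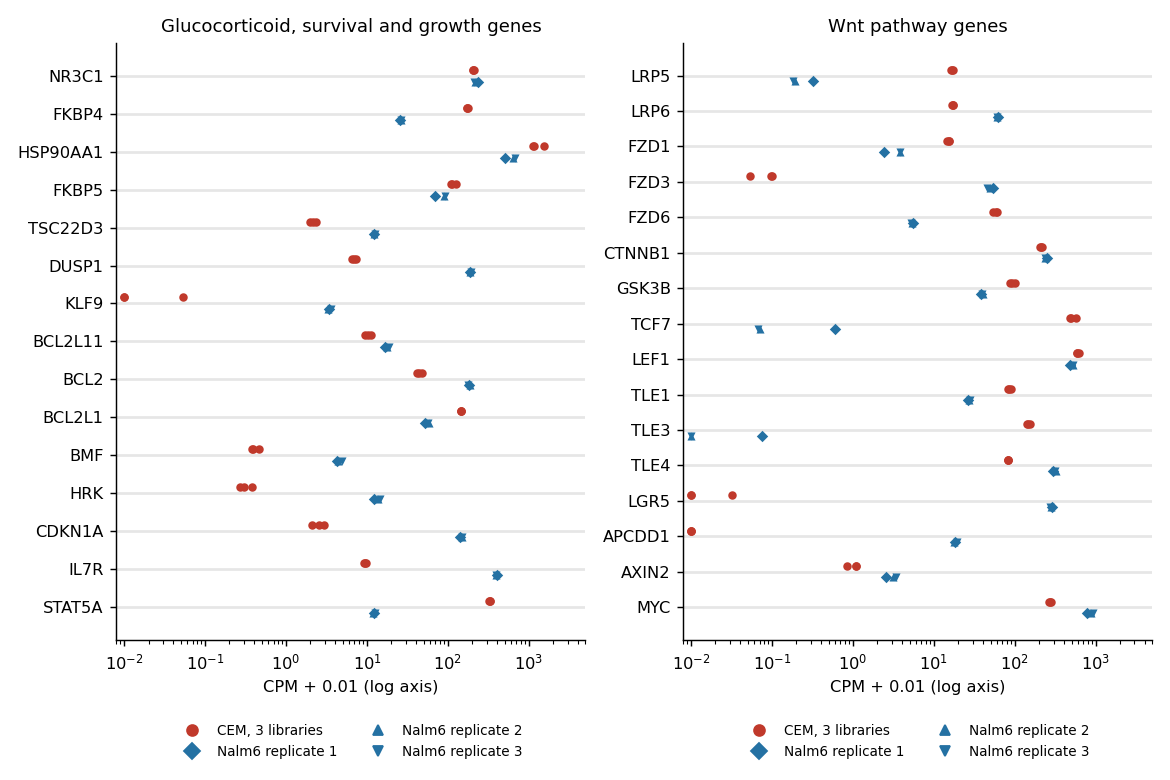
CPM + 0.01 on a log axis for glucocorticoid, survival and growth genes (left) and Wnt pathway genes (right), 1 point a library; points at the left edge are 0 counts. NR3C1, CTNNB1 and LEF1 are nearly level, whereas LGR5, TLE3, TCF7 and LRP5 are on in 1 line and near 0 in the other.

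Cytokine receptors and their kinases were divided 4 higher to 7 lower of 11 tested, against 40.2% and 37.3% of all genes. IL7R, the interleukin-7 receptor of lymphoid precursors, was at 9.45, 9.63 and 9.25 CPM in CEM and 402, 391.6 and 396 CPM in Nalm6 (log2 fold change -5.43 ± 0.05, adjusted p = 1.42e-16). STAT5A, a factor it activates, was at 334, 322 and 326 CPM in CEM and 12.2, 11.7 and 12.6 CPM in Nalm6 (log2 fold change 4.71 ± 0.05, adjusted p = 2.64e-16). CSF2RB, the shared beta chain of the interleukin-3 receptor family, was at 0, 0.0439 and 0.0296 CPM in CEM and 97.8, 101 and 98.6 CPM in Nalm6, and CRLF2 had 0 counts throughout. Homing and adhesion genes were mostly higher in CEM, 11 of 14, with a median log2 difference of 2.01. ITGAL, the alpha chain of LFA-1, was at 146, 145 and 145 CPM in CEM and 0.660, 0.523 and 0.403 CPM in Nalm6 (log2 fold change 8.02 ± 0.09, adjusted p = 2.78e-16). CCR7, which guides cells to lymph nodes, was at 35.9, 37.9 and 35.6 CPM in CEM and 0.132, 0.0308 and 0.0288 CPM in Nalm6. CCR9, a thymus and gut homing receptor, was at 7.61, 6.93 and 7.92 CPM with 0 counts in Nalm6, at least 91.7-fold higher. CXCR4, of the bone marrow, was at 349.8, 346 and 341 CPM in CEM and 466, 457 and 460.0 CPM in Nalm6 (log2 fold change -0.45 ± 0.04, adjusted p = 9.43e-08). Of 11 genes often used as references, 7 were called higher, 3 lower and 1 not, and ACTB was at 4547, 4608 and 4457 CPM in CEM and 2413, 2628 and 2767 CPM in Nalm6 (log2 fold change 0.76 ± 0.04, adjusted p = 3.42e-09).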

How the data were processed

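RNA sequencing counts of 6 libraries from a 33-library series were analysed, 3 of untreated CEM and 3 of untreated Nalm6, grouped by sample title. Values were the authors' deposited counts, whole reads for each gene, laid out as STAR writes them; the submitters' processing notes name Bowtie2, DESeq2 and the build hg19 without versions or roles, and per the labels the libraries followed standard Illumina protocols. Column 4 of the deposited counts, 1 of the 2 stranded columns, held 14.4 to 14.7 times the gene total of column 3 in these libraries and was used. The 4 rows of reads assigned to no gene were left out; these made up 19.2% to 19.8% (outside genes), 6.39% to 7.00% (ambiguous between genes), 5.14% to 5.72% (several places in the genome) and 5.13% to 8.50% (no place) of a library. Low counts were filtered with filterByExpr, libraries were scaled by TMM, and CEM was compared with Nalm6 by edgeR 4.0.16 (R 4.3.3; glmQLFit and glmQLFTest), called at an adjusted p under 0.05; DESeq2 1.42.0 was an alternative. The fit was tested on simulated data in which few genes were changed and none was made silent in 1 line, unlike this comparison. An exact permutation test of 3 against 3 libraries cannot give p below 0.1, so single values were tested only within the fit.

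The comparison and its 29 gene lists were chosen with earlier results of these data known. TRBC1, CD24 and AES had no row of their own; TLE5, the current symbol of AES, had. Named genes are list members and the 10 largest rises and falls among called protein-coding genes with 10 CPM or more in every library of the higher line and no overlap; receptor variable, diversity and joining segments and sex-linked markers were left out, and some genes are not reported here. Promoter windows are from RefSeq (GRCh38.p14), a build other than that of the counts, and were matched by symbol. Alternatives were other scalings, filters, tools, columns and Nalm6 controls, a replicate block, and leaving out each library; restricted and ranked genes without Nalm6 replicate 1, and the chromosome medians, were added after seeing the data.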

Additional observations from a re-analysis of the deposited data

How the results depend on the processing

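Under 16 alternatives the number of genes called stayed within 1.5 times the 13971 of the reported fit, and so did the number at 2-fold or more with 1 exception: requiring at least 10 counts in every library left 3025 genes at 2-fold or more in place of 6465, since that filter removes genes that are silent in 1 line. Leaving out 1 library at a time gave 13443 to 14119 called and 6582 to 6972 at 2-fold or more. Of the 13971 called genes, 12340 were called the same way and 347 the other way against the other untreated Nalm6 set; with unstranded counts 55 were called the other way, and under the remaining alternatives none was. DESeq2 called 13317 of them the same way. Scaling by library totals alone moved the median of all genes from 0.02 to 0.06. The median level of CEM-restricted genes in Nalm6 replicate 1, 0.0854% of that in CEM, was 0.0742% when only genes at 50 CPM or more in CEM were taken. Same-numbered CEM and Nalm6 libraries did not deviate together (correlations of 0.0496, 0.0362 and -0.0537), and not every library correlated best with its own number. Correlations over 3 libraries a line cannot exclude a pairing by number, and the labels do not state one. A fit with the replicate number as a block called 13930 genes, 13796 of them called the same way in the reported fit, and 6471 at 2-fold or more. Of 179 named genes tested, all but 11 kept direction and call under each alternative that tested them; the filter of 10 counts a library left 87 of these genes to test. Against the other Nalm6 set the log2 fold change of PTCRA was 1.08, RFX5 0.026, RFXANK 0.12 and RFXAP -0.44, all of opposite sign to the reported values. With at least 10 counts in every library, the median log2 difference of the T-cell leukaemia driver list turned to -0.77, of the Wnt target list to 0.20 and of the cytokine list to 0.11, over fewer members; the medians of the T-cell receptor and T-cell surface lists without Nalm6 replicate 1 were 13.13 and 12.26. Counts at or under the floor of 3 set the limit for silent genes, and their fitted fold changes depend on the prior count.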

Other observations

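Several runs of neighbouring genes were at or near 0 in Nalm6 and on in CEM. These runs were sought after the values were seen, with neighbours taken from the RefSeq order of protein-coding genes (GRCh38.p14); a run is 4 or more consecutive expressed genes at no more than 3 counts in every library of 1 line and 10 or more in every library of the other. There were 9 such runs on the autosomes, 8 low in Nalm6 and 1, the HLA-DR and HLA-DQ genes on chromosome 6, low in CEM. On chromosome 9, MLLT3, FOCAD, HACD4, KLHL9, MTAP and CDKN2A held 0 counts in Nalm6 replicates 2 and 3 and at most 2 in replicate 1, and 0 in the other untreated Nalm6 set. In CEM, HACD4 was at 21.6, 21.6 and 23.3 CPM and KLHL9, a ubiquitin ligase adaptor, at 38.9, 38.2 and 40.4 CPM. HAUS6 lies before the run and PLAA after it, and both were on in both lines. HAUS6 was at 79.4, 78.3 and 77.9 CPM in CEM and 134, 124 and 124 CPM in Nalm6. PLAA was at 37.4, 37.5 and 35.1 CPM in CEM and 45.7, 50.3 and 49.2 CPM in Nalm6. On chromosome 3, the zinc finger genes ZKSCAN7, ZNF660, ZNF197, ZNF35 and ZNF501 had at most 1 count in any of these Nalm6 libraries, while ZNF197 was at 52.0, 51.0 and 51.8 CPM in CEM. On chromosome 12, the keratin genes KRT72, KRT73, KRT2, KRT1 and KRT77 were on in CEM, KRT1 at 29.3, 32.9 and 31.0 CPM, with at most 3 counts in a Nalm6 library.

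Genes of chromosome 20 stood higher in CEM as a group. Of 343 protein-coding genes tested there, 261 (76.1%) had a log2 difference above 0, against 50.5% on all other chromosomes, and the median was 0.47. The medians of the other autosomes lay between -0.08 (chromosome 22) and 0.15 (chromosome 21). The chromosome 20 median was 0.45 without Nalm6 replicate 1, 0.53 against the other untreated Nalm6 set, 0.51 with library totals alone and 0.47 with DESeq2.

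The 138 CEM-restricted genes were also counted in the other Nalm6-derived libraries, as a summed level in percent of that in CEM. It was 0.0714%, 0.0713% and 0.0725% in dexamethasone-treated Nalm6 and 0.0238% to 0.0309% in prednisolone-treated Nalm6. In the TLE1 knockout it was 0.0198% to 0.0341% with dexamethasone, 0.00989% to 0.0149% with prednisolone and 0.00257% to 0.00553% untreated. In the other untreated Nalm6 set it was 0% to 0.00172%, a low level fixed by the choice of genes at or near 0 there. In Nalm6 with CHIR-99021 it was 0.00308% to 0.00609%. Nalm6 replicate 1 of the comparison, at 0.0858%, was the highest of these libraries.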
